A study of Mus musculus with 6 samples.

Results

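The AP-1 and immediate early genes examined here are Jun, Junb, Jund, Fos, Fosb, Fosl2, Atf3, Egr1, Ier2 and Klf4, 10 of the 24015 gene symbols in the count tables. They were chosen by symbol, as genes that encode subunits of the transcription factor AP-1 or are transcribed within minutes of a stimulus, and all 10 were found and passed the filter on low counts that left 11371 genes for testing. Sciatic nerves of male and female mice aged 14 days after birth gave 6 RNA-Seq libraries, 3 per genotype, and RNA for each came from a pool of 3 nerves. Control mice were Rnf40 fl/fl without Cre, and Rnf40ΔSC mice carried the Dhh::Cre transgene in addition, so that both genotypes share the floxed alleles. Dhh::Cre acts in the Schwann cell lineage, and RNA was taken from the whole nerve, which also holds cells outside that lineage. The labels give a mixed 129SvJ/C57Bl/6J background, the methods a mixed C3H and C57Bl/6J background, in both cases for all mice, and the labels and the methods also name different library kits (NEB Next Ultra and NEXTFLEX Rapid Directional).

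AP-1 is a dimer of a Jun protein with a Fos, Jun or Atf protein, bound through basic leucine zippers to short DNA sites. Immediate early genes are switched on by ERK, JNK and p38 kinases without new protein synthesis, and handling of tissue can induce them as well as signals within it. In peripheral nerve, cJun is known as the factor that drives the repair state of Schwann cells after injury and opposes myelination, and Egr2, a relative of Egr1, is the main driver of the myelin programme.

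The libraries held 1317167, 1992622 and 2468765 counts in control and 2184268, 1459387 and 2186710 in Rnf40ΔSC replicates 1, 2 and 3. Normalized counts are counts brought to a common library size with TMM factors, and a gene was called when edgeR's quasi-likelihood test across all genes gave a Benjamini-Hochberg adjusted p of at most 0.05. The deleted gene, Rnf40, had normalized counts of 127, 123 and 138 in control replicates 1, 2 and 3 and 87.7, 87.9 and 91.5 in Rnf40ΔSC replicates 1, 2 and 3. All Rnf40ΔSC libraries lay below all control libraries, with a log2 fold change of -0.54 ± 0.14 (SE, adjusted p = 0.00242). The count covers the whole gene, including exons outside the deleted part and transcripts of cells without Cre. Scaled by total counts, the Rnf40 call was lost (adjusted p = 0.12, range over all alternatives 0.00235 to 0.12). Rnf20, the partner of Rnf40 in the ubiquitin ligase, had a log2 fold change of 0.44 with an adjusted p of 0.00998, higher in all Rnf40ΔSC than in all control libraries, and its call was lost without control replicate 3 (0.087) and without Rnf40ΔSC replicate 1 (0.057), the range of adjusted p over all alternatives being 5.82e-05 to 0.087.

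The tissue label was checked against markers of the Schwann cell lineage, of which 7 of 7 were detected. Of these markers 6 were called lower and 1, Foxd3, higher, against 16.2% and 15.4% over all genes. DESeq2 also called 6 lower and 1 higher, against 11.3% and 10.3% of all genes. Sox10, the lineage factor, had a log2 fold change of -0.79 with an adjusted p of 8.8e-09. In RNA of whole nerve, fewer cells of a type and less RNA per cell cannot be told apart.

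Levels of the 10 genes can be compared with each other only per length, as reads per kilobase of exon, scaled for depth (RPKM). Jund was the most abundant in control nerves at 50.6 ± 0.745 (SD, n = 3), followed by Jun at 31.4 ± 3.07 and Klf4 at 15.6 ± 3.41. Fosl2 at 10.2 ± 1.24, Ier2 at 9.74 ± 3.19 and Egr1 at 9.26 ± 0.730 did not differ beyond their spread. Fos at 6.38 ± 2.25 and Atf3 at 5.31 ± 1.02 overlapped, and Junb at 3.56 ± 0.751 and Fosb at 1.24 ± 0.452 were the least abundant of the 10. In Rnf40ΔSC nerves Jund at 50.7 ± 6.04 and Jun at 33.9 ± 3.83 again came first, and Egr1 at 14.6 ± 1.07 stood above Klf4 at 10.7 ± 2.12, the reverse of their order in control nerves. Junb, Jund and Ier2 lie on chromosome 8, Jun and Klf4 on 4, Fosl2 on 5, Fosb on 7, Fos on 12 and Atf3 on 1. Exon lengths were taken from the GENCODE annotation of mm9, and the annotation behind the counts is not given in the sources used here. In that annotation Jun, Jund and Egr1 each overlap a gene on the opposite strand, and because the strand setting of the counting is not given, reads from such a partner cannot be told apart from theirs.

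Between the genotypes, 1 of the 10 genes was called higher in Rnf40ΔSC nerves, Egr1, and 1 was called lower, Klf4. Over all genes tested, 15.4% were called higher and 16.2% lower, so that 1 of 10 in either direction is close to the background and is no result about the 10 genes as a group. Egr1 was called under all 14 alternatives run, and the Klf4 call was lost under 8 of 14. The normalized counts of the genotypes did not overlap for 2 of the 10, Egr1 and Atf3, against 43.5% of all genes tested. With the limits of the study (a log2 fold change of 0.8 or more in either direction, with the mean normalized count no lower than 20), 0 of the 10 passed, against 3.65% of all genes higher and 4.99% lower. At an unadjusted p under 0.05 within these limits the number was also 0 by edgeR, and DESeq2 gave 0 with and without a fold-change prior. The median log2 fold change was 0.05 over the 10 genes and -0.003 over all genes. Scaling by total counts moved the median of all genes by 0.27, and with it Jun, Jund, Fosb, Atf3 and Egr1 were called higher and Klf4 was no longer called lower, against 33.1% of all genes called higher and 7.74% lower with that scaling, while the share of higher calls among all calls went from 48.8% to 81.1%. Directions below are therefore relative to the bulk of genes.

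**Figure D1:**
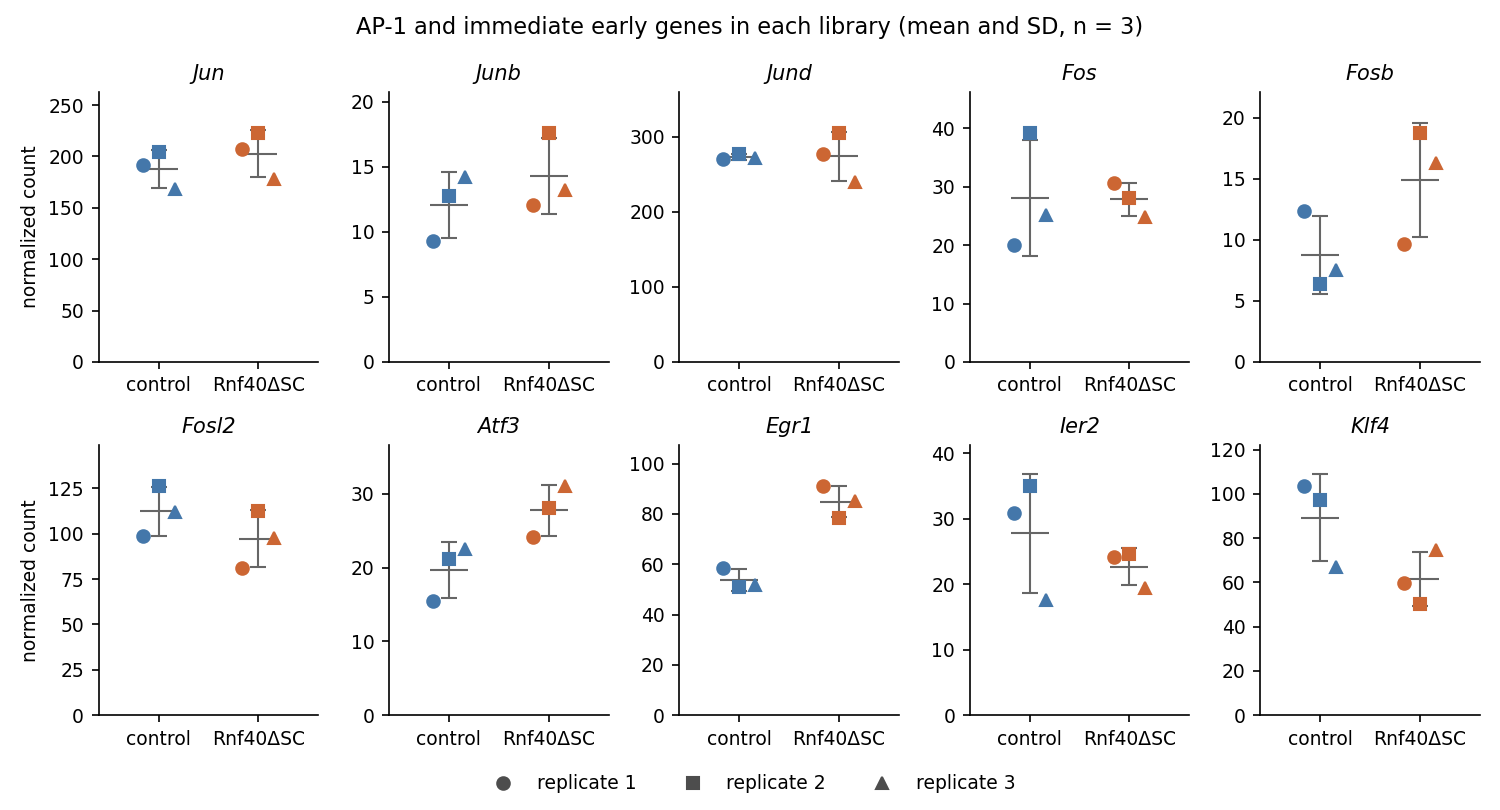
Normalized count of each gene (vertical axis, from 0) in the 3 control and 3 Rnf40ΔSC libraries; symbols mark the replicate, and bars the mean and SD. The Egr1 and Atf3 values of the genotypes do not overlap, and those of the other 8 genes do.

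**Figure D2:**
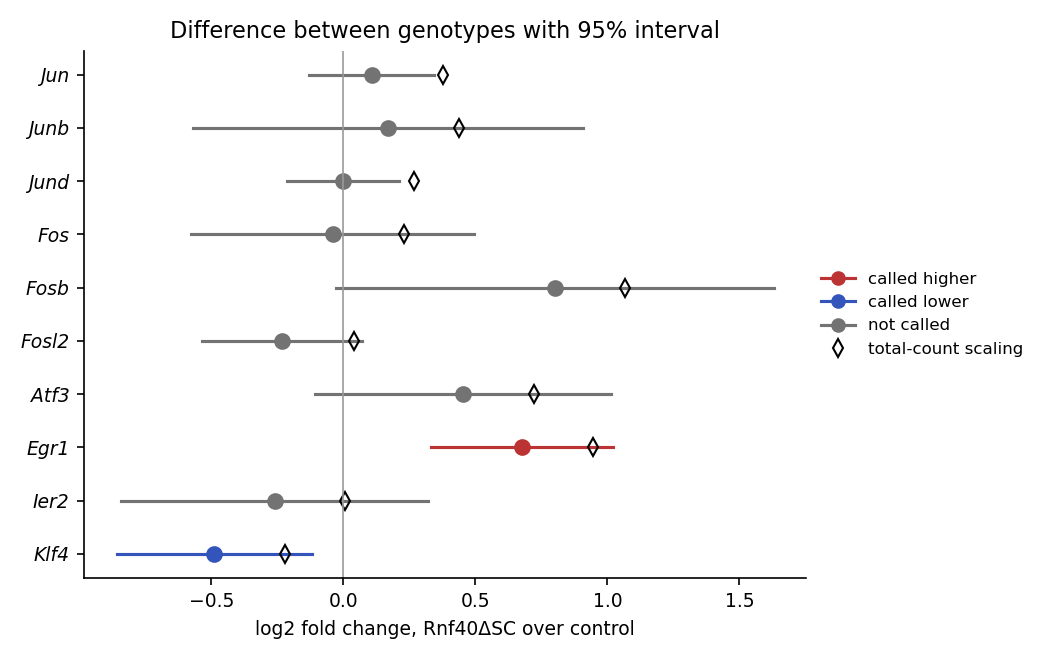
Log2 fold change of Rnf40ΔSC over control nerves (horizontal axis) for each gene after TMM scaling, with its 95% interval, and after total-count scaling (open diamonds). After TMM scaling the intervals of Egr1 and Klf4 leave out 0, and total-count scaling moves all 10 values to the right, those of Jund, Fos, Fosl2 and Ier2 across 0.

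The Jun proteins are the AP-1 subunits that can pair with themselves. Jun had normalized counts of 191, 204 and 168 in control replicates 1, 2 and 3 and 208, 223 and 178 in Rnf40ΔSC replicates 1, 2 and 3. The Rnf40ΔSC libraries overlapped the controls, and replicate 3 was the lowest library of each genotype. The 95% interval of the log2 fold change ran from -0.13 to 0.34 (adjusted p = 0.522), which leaves room for a rise of 1.27-fold or a level 0.915 times that of control. Jund, the subunit usually present without stimulation, had 270.1, 278 and 271 in control replicates 1, 2 and 3 and 277, 305 and 239.7 in Rnf40ΔSC replicates 1, 2 and 3. The controls lay within a coefficient of variation of 1.47% and inside the wider range of the Rnf40ΔSC libraries, with a log2 fold change of -0.00 ± 0.10 (SE, adjusted p = 0.989). The sign of so small a value turned without control replicate 2 (0.008) and without Rnf40ΔSC replicate 3 (0.095). Junb, known as a weaker activator that can restrain cJun, had raw counts of 6, 12 and 17 in the control and 15, 15 and 17 in the Rnf40ΔSC libraries. Its interval, -0.57 to 0.91, was wider than that of Jun (adjusted p = 0.764).

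The Fos proteins bind DNA only as partners of a Jun protein. Fos had normalized counts of 20.1, 39.2 and 25.1 in control replicates 1, 2 and 3 and 30.6, 28.1 and 24.8 in Rnf40ΔSC replicates 1, 2 and 3. Control replicates 1 and 2 were the lowest and the highest of the 6 libraries, and all Rnf40ΔSC values fell between them, with a log2 fold change of -0.04 ± 0.26 (SE, adjusted p = 0.927). The Fos estimate changed sign without control replicate 2 (0.27), without Rnf40ΔSC replicate 3 (0.053) and with total-count scaling (0.23). Fosb had 12.3, 6.36 and 7.53 in control replicates 1, 2 and 3 and 9.66, 18.7 and 16.3 in Rnf40ΔSC replicates 1, 2 and 3. Rnf40ΔSC replicates 2 and 3 exceeded all controls and replicate 1 did not, and the log2 fold change of 0.80 ± 0.41 (SE, adjusted p = 0.137) missed the threshold, with an interval from -0.03 to 1.63. Fosb reached the count minimum of the filter in 1 control library and 3 Rnf40ΔSC libraries. Fosl2, which encodes the Fos relative Fra-2, had 98.8, 126 and 112 in control replicates 1, 2 and 3 and 81.3, 112 and 97.7 in Rnf40ΔSC replicates 1, 2 and 3. Rnf40ΔSC replicates 1 and 3 lay below all controls and replicate 2 within them, and the log2 fold change of -0.23 with an adjusted p of 0.248 turned to 0.04 with total-count scaling.

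Fosl1, which encodes Fra-1 and is not among the 10 genes, is named here after its values were seen. Its raw counts were 1, 0 and 0 in the control and 6, 8 and 7 in the Rnf40ΔSC libraries. It failed the filter on low counts and was not tested in the fit above. The ratio of its scaled counts was 17.3, with an exact 95% interval from 2.78 to 715 that covers counting error only. When all genes with at least 1 read were fitted, its log2 fold change was 3.74 (adjusted p = 0.00365).

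The make-up of each family was computed within a library as the share of its reads per kilobase, which no scaling between libraries can alter. In the Jun family, Jund held 59.0, 57.5 and 60.8% in control and 57.3, 57.1 and 56.9% in Rnf40ΔSC replicates 1, 2 and 3, Jun held 37.7, 38.3 and 34.1% in control and 38.8, 37.7 and 38.1% in Rnf40ΔSC replicates 1, 2 and 3, and Junb the rest. The shares of the genotypes overlapped for Jun and Junb and not for Jund, whose nearest values were 57.5 and 57.3%. The mean share of Jund was 59.1 ± 1.65% in control and 57.1 ± 0.165% in Rnf40ΔSC nerves (SD, n = 3). In the Fos family, Fosl2 held 57.0, 54.0 and 60.2% in control and 43.0, 46.1 and 48.0% in Rnf40ΔSC replicates 1, 2 and 3. Its mean share was 57.0 ± 3.09% in control and 45.7 ± 2.53% in Rnf40ΔSC nerves. Part of that gap comes from Fosl1, which was near 0 in control libraries: over Fos, Fosb and Fosl2 alone, an alternative chosen after seeing the data, Fosl2 held 58.8, 54.0 and 60.2% in control and 47.1, 53.1 and 52.8% in Rnf40ΔSC replicates 1, 2 and 3, with nearest values of 54.0 and 53.1%. The share of Fosl1 was 1.02 ± 1.76% and 10.4 ± 2.45%, while that of Fos overlapped between the genotypes. Fos family shares rest on 86 to 186 reads per library, and no test was run on them. Without division by length the share of Fosl2 was higher, 75.1% in control and 66.2% in Rnf40ΔSC nerves.

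**Figure D3:**
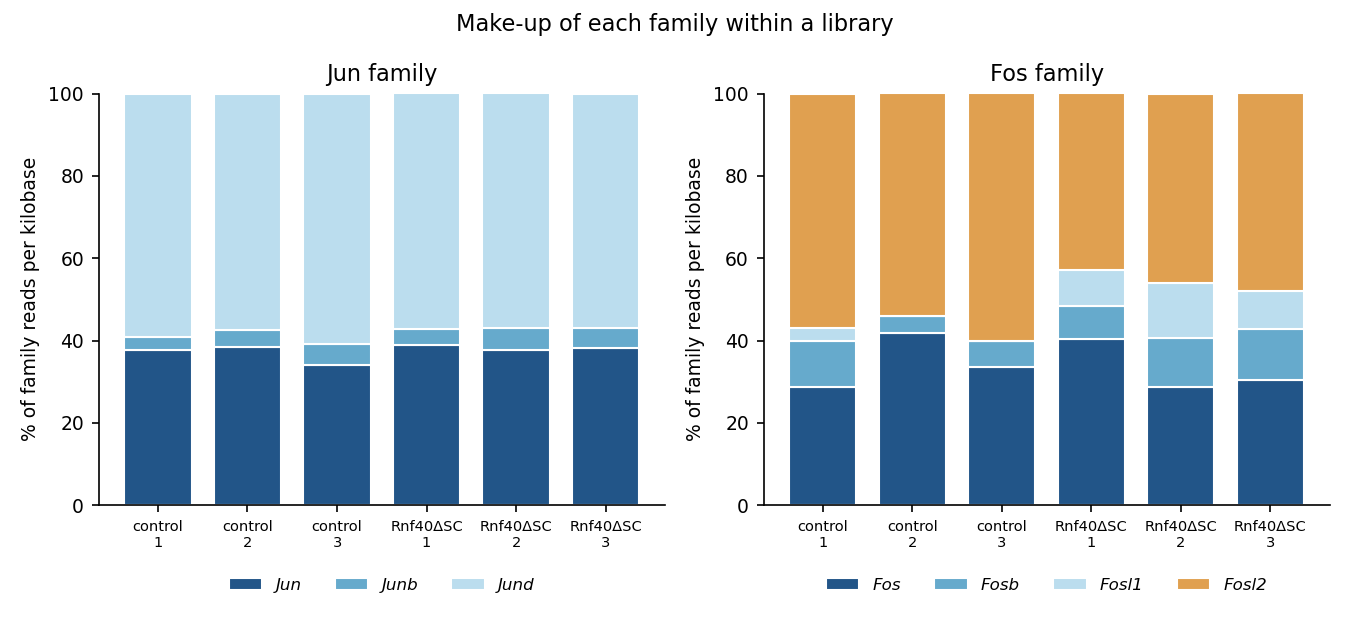
Share of each gene in the reads per kilobase of the Jun family and of the Fos family (vertical axis, percent) in each library. In the Jun family the Jund segment is between 57.5 and 60.8% in control and between 56.9 and 57.3% in Rnf40ΔSC libraries, and in the Fos family the Fosl2 segment is between 54.0 and 60.2% in control and between 43.0 and 48.0% in Rnf40ΔSC libraries.

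Atf3 encodes a stress-induced partner of Jun proteins that rises in neurons and Schwann cells after nerve injury. Its normalized counts were 15.4, 21.2 and 22.6 in control replicates 1, 2 and 3 and 24.1, 28.1 and 31.0 in Rnf40ΔSC replicates 1, 2 and 3. All Rnf40ΔSC libraries lay above all controls, the highest control being 22.6 and the lowest Rnf40ΔSC library 24.1. The log2 fold change of 0.45 ± 0.28 (SE, adjusted p = 0.222) missed the threshold, and its interval ran from -0.11 to 1.01. Atf3 was called with total-count scaling (adjusted p = 0.0347, range over all alternatives 0.0347 to 0.445).

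Egr1 encodes a zinc finger factor induced through ERK and the serum response factor, and shares its DNA site with Egr2 and Egr3. Its normalized counts were 58.6, 50.8 and 51.9 in control replicates 1, 2 and 3 and 90.9, 78.5 and 85.3 in Rnf40ΔSC replicates 1, 2 and 3. The lowest Rnf40ΔSC library stood well above the highest control, and the replicates of each genotype lay close together, with 53.8 ± 4.24 in control and 84.9 ± 6.23 in Rnf40ΔSC nerves (SD, n = 3). The level was 1.6-fold that of control (95% interval 1.26 to 2.03), with a log2 fold change of 0.68 ± 0.17 (SE, adjusted p = 0.00211). Over the alternatives Egr1 had log2 fold changes from 0.64 to 0.95 and adjusted p from 3.22e-05 to 0.0184.

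Of the relatives of Egr1, Egr2 and Egr3 were called higher, and Egr4 had 0 counts in all 6 libraries. Egr2, the myelin regulator, had normalized counts of 459.9, 501 and 425 in control replicates 1, 2 and 3 and 578, 512 and 685 in Rnf40ΔSC replicates 1, 2 and 3. The Rnf40ΔSC libraries lay above the controls, the nearest values being 501 and 512, with a log2 fold change of 0.36 with an adjusted p of 0.00579. The Egr2 call was lost without control replicate 3 (0.0873), the range of adjusted p over all alternatives being 7.93e-06 to 0.0873. Egr3 had a log2 fold change of 0.46 with an adjusted p of 0.0382, and its call was lost with DESeq2 without a prior (0.129), with DESeq2 with a prior (0.129), without control replicate 2 (0.0741), without control replicate 3 (0.203), without Rnf40ΔSC replicate 1 (0.054) and without Rnf40ΔSC replicate 2 (0.173), the range of adjusted p over all alternatives being 0.000948 to 0.203. Whether Egr1, Egr2 and Egr3 changed by different amounts was not tested. Of the corepressors that bind Egr proteins, Nab1 had a log2 fold change of -0.52 with an adjusted p of 0.000253, no longer called with total-count scaling (0.0613), the range of adjusted p over all alternatives being 9.67e-05 to 0.0613, and Nab2 of 0.18 with an adjusted p of 0.251. Nab2 was called higher with total-count scaling (0.45, adjusted p = 0.00247, range over all alternatives 0.00247 to 0.649). Pou3f1, which encodes Oct6, and Pou3f2, which act beside Egr2 in Schwann cells, had log2 fold changes of 2.05 and 1.82.

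Klf4 encodes a Krüppel-like factor that is transcribed in endothelial cells, fibroblasts and Schwann cells, among others. Its normalized counts were 103, 97.4 and 66.9 in control replicates 1, 2 and 3 and 59.5, 50.4 and 74.5 in Rnf40ΔSC replicates 1, 2 and 3. Rnf40ΔSC replicates 1 and 2 lay below all controls, whereas Rnf40ΔSC replicate 3 exceeded control replicate 3, so that the genotypes overlapped. The log2 fold change of -0.49 ± 0.18 (SE, adjusted p = 0.0367) passed the threshold, with an interval from -0.86 to -0.12. The call was lost with total-count scaling (0.357), with DESeq2 without a prior (0.116), with DESeq2 with a prior (0.116), without the robust option (0.0588), without control replicate 1 (0.163), without control replicate 2 (0.173), without Rnf40ΔSC replicate 1 (0.128) and without Rnf40ΔSC replicate 2 (0.146), the range of adjusted p over all alternatives being 0.00891 to 0.357.

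Markers of other cell types moved with the genotype beside Klf4. Over all genes edgeR called 16.2% lower and DESeq2 11.3%. Of the endothelial markers 6 of 10 tested were called lower (4 by DESeq2), with summed normalized counts of 1570, 1380 and 1551 in control and 1009, 1007 and 1184 in Rnf40ΔSC replicates 1, 2 and 3, whose most abundant gene, Cdh5, was itself called lower, a call lost with total-count scaling (0.0598), the range of adjusted p over all alternatives being 1.12e-06 to 0.0598. Of the pericyte and smooth muscle markers 5 of 10 were lower (5 by DESeq2), with sums of 2357, 1806 and 2015 in control and 1222, 1174 and 1615 in Rnf40ΔSC replicates 1, 2 and 3, led by Pdgfrb. Of the fibroblast and perineurial markers 9 of 10 were lower (7 by DESeq2), with sums of 76370, 75130 and 81100 in control and 59100, 56840 and 56000 in Rnf40ΔSC replicates 1, 2 and 3, led by Col3a1. Of the 9, Itgb4 is also on the paper's list of genes with lower expression and reduced histone H2B ubiquitination. The cells behind its change cannot be told from RNA of whole nerve. All libraries held these cell types, and each of the 3 sums was lower in all Rnf40ΔSC libraries than in all controls. Skeletal muscle markers summed to 7136, 5298 and 3969 in control and 147, 391 and 5228 in Rnf40ΔSC replicates 1, 2 and 3, led by Myh4, and Rnf40ΔSC replicates 1 and 2 stood far below the other 4 libraries, in which Klf4 was also higher. By edgeR 0 of the 10 muscle markers were called, also 0 at an unadjusted p under 0.05, and 0 by DESeq2. Myh4 was called without the robust option (adjusted p = 0.0192) and without Rnf40ΔSC replicate 3 (adjusted p = 0.00842), where its log2 fold change went from -2.16 to -5.23 (range of adjusted p over all alternatives 0.00842 to 0.52). The part of any of these cell types in the Klf4 difference was not tested. Without Rnf40ΔSC replicate 3, the library of that genotype with the highest sum of muscle markers, the log2 fold change of Klf4 was -0.64 (adjusted p = 0.00891), and that of Egr1 was 0.69 (adjusted p = 0.00302).

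**Figure D4:**
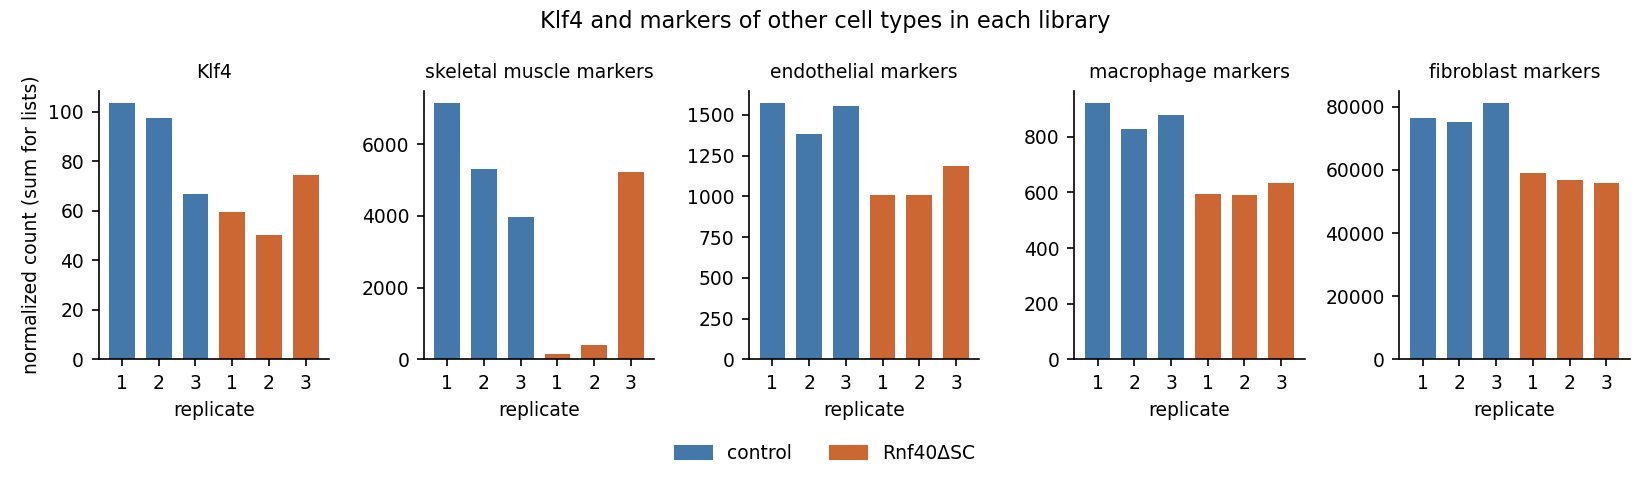
Normalized count of Klf4 and summed normalized counts of markers of skeletal muscle, endothelial cells, macrophages and fibroblasts (vertical axes, each from 0) in the 3 control and 3 Rnf40ΔSC libraries. The endothelial, macrophage and fibroblast sums are lower in all Rnf40ΔSC libraries than in all controls, and the muscle sum is low in Rnf40ΔSC replicates 1 and 2 only.

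Immune and remaining cell types gave the following. Of the macrophage markers 6 of 10 tested were lower (4 by DESeq2, over all genes 16.2% by edgeR and 11.3% by DESeq2), with sums of 919.8, 826 and 877 in control and 593, 590.4 and 632 in Rnf40ΔSC replicates 1, 2 and 3, led by Csf1r. By staining for the macrophage protein Iba1, the paper found a larger share of macrophages in Rnf40ΔSC nerves at this age. Relative RNA levels are another measure than counted cells, and the lower sums do not show fewer macrophages. Of the adipocyte markers 4 of 7 were lower (4 by DESeq2), with sums of 2429, 1797 and 3027 in control and 1857, 1717 and 1412 in Rnf40ΔSC replicates 1, 2 and 3, which overlapped between the genotypes. Their most abundant gene, Fabp4, was not among the 4 (adjusted p = 0.33) and was called without the robust option only (adjusted p = 0.0412, range over all alternatives 0.0412 to 0.679). Of the neutrophil, mast cell and T cell markers 4 could be tested, with 2 lower (1 by DESeq2) and 1 (Cd4, which reached the count minimum of the filter only in Rnf40ΔSC libraries) higher, led by Cpa3 of mast cells, and Mpo and Cd8a stood at 0. Of the 2 lower, Mcpt4 reached that minimum in 3 control libraries and 1 Rnf40ΔSC library. Of the neuronal markers 2 could be tested, both through Rnf40ΔSC libraries alone, and 1 was called higher, Snap25, with normalized counts of 4.63, 6.36 and 6.69 in control and 18.5, 15.2 and 17.8 in Rnf40ΔSC replicates 1, 2 and 3 and a log2 fold change of 1.496 with an adjusted p of 0.00375. Isl1 stood at 0, and of the erythroid markers all but Alas2 stood at 0, including the globin genes listed. Alas2 had normalized counts from 9.66 to 41.7. Only unique alignments were counted, and whether globin reads were lost in counting was not tested. Alas2 was called lower without Rnf40ΔSC replicate 3 only (adjusted p = 0.00273, range over all alternatives 0.00273 to 0.558).

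Ier2, a nuclear protein of the early response, had normalized counts of 30.9, 35.0 and 17.6 in control replicates 1, 2 and 3 and 24.1, 24.6 and 19.4 in Rnf40ΔSC replicates 1, 2 and 3. Control replicates 1 and 2 were the highest and control replicate 3 the lowest of the 6 libraries, and the Rnf40ΔSC values lay between them. The log2 fold change of -0.26 with an adjusted p of 0.527, with an interval from -0.84 to 0.32, was 0.007 with total-count scaling.

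Promoter sequences from RefSeq (build GRCm38.p6) were found for 8 of the 10 genes, and not for Egr1 and Ier2. The 250 bases before each start were searched on both strands for the AP-1 site TGANTCA (in 6.75% of all 32851 promoter windows of this length), the cAMP response element TGACGTCA (1.55%), its first letters TGACG, which are contained in it (17.8%), the Egr site GCGNGGGCG (4.7%), the CArG box of serum response factor (1.47%) and the TATA box TATAAA (12.4%). No window of the 8 genes held the AP-1 site, the full cAMP response element or the CArG box. The Egr site was found in 3 windows, those of Klf4, Fosb and Fosl2, and TGACG in those of Junb, Fos, Fosb, Atf3 and Klf4. The windows with an Egr site are shown because Egr1 was called higher and, of these 3 genes, Klf4 was called lower and Fosb and Fosl2 were not called, and that of Fos because it holds both TGACG and the TATA box. A match is a run of letters and not a bound site. Capitals mark the Egr site in Klf4 (chr4:55532476-55532725, minus strand; the matches are on the opposite strand), Fosb (chr7:19310046-19310295, minus strand) and Fosl2 (chr5:32136222-32136471, plus strand), and TGACG and the TATA box in Fos (chr12:85473640-85473889, plus strand). All are upstream of the first exon and written in the direction of transcription.
Klf4: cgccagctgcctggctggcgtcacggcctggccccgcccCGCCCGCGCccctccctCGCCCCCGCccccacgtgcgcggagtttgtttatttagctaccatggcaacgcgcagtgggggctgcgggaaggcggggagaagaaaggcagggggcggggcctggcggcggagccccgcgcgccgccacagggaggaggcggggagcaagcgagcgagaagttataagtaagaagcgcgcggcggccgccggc
Fosb: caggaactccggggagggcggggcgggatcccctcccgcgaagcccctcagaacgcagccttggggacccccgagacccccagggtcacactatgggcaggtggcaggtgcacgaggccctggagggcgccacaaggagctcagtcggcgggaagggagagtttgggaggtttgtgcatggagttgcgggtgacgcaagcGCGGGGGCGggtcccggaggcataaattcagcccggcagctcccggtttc
Fosl2: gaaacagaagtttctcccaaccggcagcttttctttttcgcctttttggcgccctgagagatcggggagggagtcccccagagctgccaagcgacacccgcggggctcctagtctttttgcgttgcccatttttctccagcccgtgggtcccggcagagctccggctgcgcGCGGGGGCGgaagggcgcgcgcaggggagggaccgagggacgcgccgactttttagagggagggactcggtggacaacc
Fos: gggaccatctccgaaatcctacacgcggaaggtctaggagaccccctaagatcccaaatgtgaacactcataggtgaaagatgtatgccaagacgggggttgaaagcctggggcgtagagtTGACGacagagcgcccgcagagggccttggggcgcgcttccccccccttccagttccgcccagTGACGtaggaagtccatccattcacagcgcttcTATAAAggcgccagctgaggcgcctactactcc

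Among 12 other AP-1 and basic leucine zipper genes, 7 passed the filter, of which 3 were called higher and 1 lower (over all genes 15.4% and 16.2%), and by DESeq2 1 and 1 (over all genes 10.3% and 11.3%), with a median log2 fold change of 0.41. Jdp2, a partner of Jun proteins that represses AP-1 sites, had normalized counts of 44.8, 74.1 and 66.9 in control replicates 1, 2 and 3 and 35.4, 29.3 and 36.5 in Rnf40ΔSC replicates 1, 2 and 3. All Rnf40ΔSC libraries were below all controls, with a log2 fold change of -0.89 ± 0.21 (SE, adjusted p = 0.00102). Maf, a large Maf protein, rose by a log2 fold change of 0.68 with an adjusted p of 1.01e-07, Mafg, a small Maf protein, by 0.56 with an adjusted p of 0.0148 and Atf2, a JNK and p38 substrate that pairs with cJun, by 0.41 with an adjusted p of 0.0134. The Mafg call was lost with DESeq2 without a prior (0.067), with DESeq2 with a prior (0.0665) and without control replicate 2 (0.0856), the range of adjusted p over all alternatives being 0.000355 to 0.0856. The Atf2 call was lost with DESeq2 without a prior (0.0606), with DESeq2 with a prior (0.0603), without control replicate 3 (0.135) and without Rnf40ΔSC replicate 1 (0.0546), the range of adjusted p over all alternatives being 6.14e-05 to 0.135. Batf, Batf2, Batf3, Maff and Fosl1 failed the filter.

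Of 45 other immediate early symbols, 43 were in the tables and 33 passed the filter, of which 5 were called higher, 3 lower and 25 not at all. The shares, 15.2% higher and 9.09% lower, are near or below those over all genes, 15.4% and 16.2%, so the counts are no result about these genes, and DESeq2 called 3 higher and 2 lower, against 10.3% and 11.3% of all genes. Arc and Gadd45b reached the count minimum of the filter in 1 genotype only, where they are high, and had to differ to be tested. The list had a median log2 fold change of -0.02. Plk2, a kinase induced by serum and stress, had normalized counts of 149.7, 134 and 141 in control replicates 1, 2 and 3 and 292, 348 and 305 in Rnf40ΔSC replicates 1, 2 and 3. Every Rnf40ΔSC library had more than every control, with a log2 fold change of 1.15 with an adjusted p of 9.61e-11. Sgk1, a serum- and glucocorticoid-induced kinase, rose by 0.55 with an adjusted p of 1.32e-05 on the log2 scale, and Arc, a neuronal activity gene, had raw counts of 1, 7 and 11 in the control and 23, 12 and 16 in the Rnf40ΔSC libraries and a log2 fold change of 1.15 with an adjusted p of 0.0379. The Arc call was lost with DESeq2 without a prior (0.133), with DESeq2 with a prior (0.125), without control replicate 1 (0.173), without control replicate 2 (0.0862), without Rnf40ΔSC replicate 1 (0.171) and without Rnf40ΔSC replicate 2 (0.0592), the range of adjusted p over all alternatives being 0.00787 to 0.173.

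Nr4a2, an orphan nuclear receptor, was lower, with normalized counts of 407, 398 and 362 in control replicates 1, 2 and 3 and 154, 160.5 and 196 in Rnf40ΔSC replicates 1, 2 and 3. No Rnf40ΔSC library reached any control, the difference being -1.18 with an adjusted p of 3.09e-11 on the log2 scale, whereas its relative Nr4a1 had 0.02 with an adjusted p of 0.911. Klf6, a Krüppel-like factor induced in injured nerve, had a log2 fold change of -0.45 with an adjusted p of 0.000531, not called with total-count scaling (0.135), the range of adjusted p over all alternatives being 0.000142 to 0.135, and Gadd45b, a stress-induced regulator of p38 signalling, had raw counts of 8, 11 and 18 in the control and 5, 5 and 7 in the Rnf40ΔSC libraries and a log2 fold change of -1.37 with an adjusted p of 0.0151. The Gadd45b call was lost with DESeq2 without a prior (0.0935), with DESeq2 with a prior (0.0896), without control replicate 3 (0.107) and without Rnf40ΔSC replicate 1 (0.0774), the range of adjusted p over all alternatives being 0.0148 to 0.107. Myc, a growth factor-induced gene, had a log2 fold change of 0.09 with an adjusted p of 0.847, which turned negative without control replicate 2 (-0.13) and without Rnf40ΔSC replicate 3 (-0.14).

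**Figure D5:**
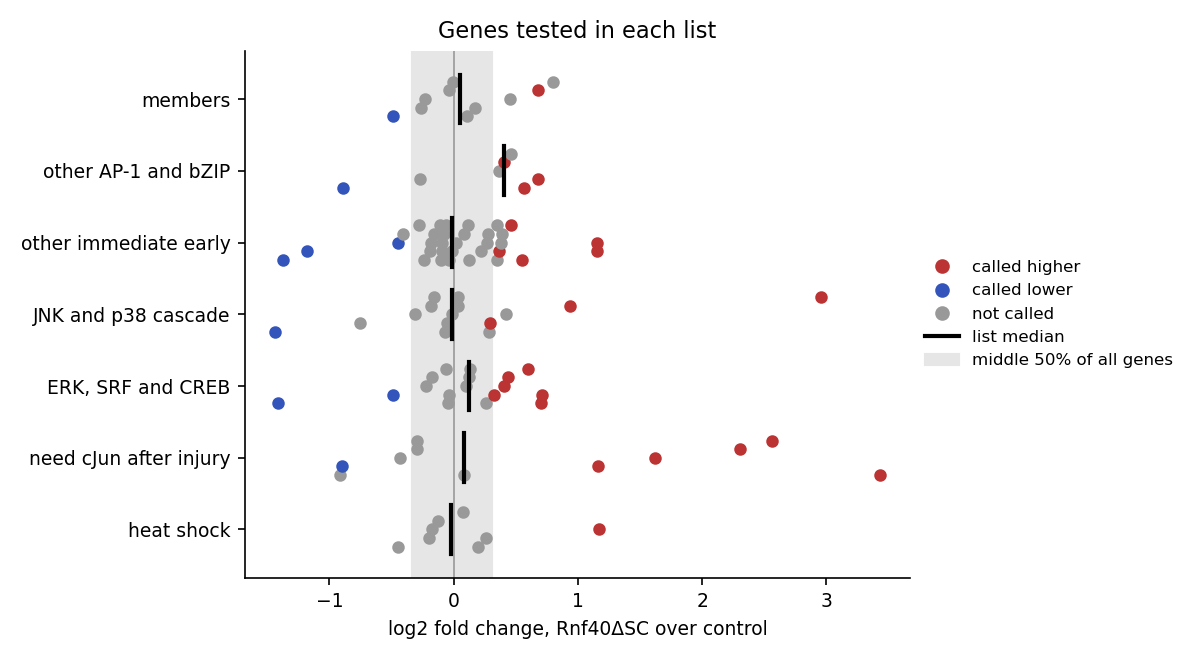
Log2 fold change of Rnf40ΔSC over control nerves (horizontal axis) for each gene tested in the 10 members and in lists of related genes; black bars are list medians and the grey band holds the middle 50% of all genes tested. The medians of the members and of the other immediate early genes lie near 0, and called genes lie on both sides of 0 in all lists shown but the heat shock genes.

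The kinases upstream of AP-1 changed in single genes. In the JNK and p38 cascade 3 of 15 genes tested were higher and 1 lower (20% and 6.67%, over all genes 15.4% and 16.2%) and by DESeq2 2 and 1 (over all genes 10.3% and 11.3%), with a median log2 fold change of -0.02. Mapk8ip1, the scaffold that holds JNK with its activators, had normalized counts of 1208, 1334 and 1310 in control replicates 1, 2 and 3 and 438, 457 and 529 in Rnf40ΔSC replicates 1, 2 and 3. The genotypes were far apart, with a log2 fold change of -1.44 with an adjusted p of 3.23e-15. Map3k1, an activator of JNK, rose by 0.94 with an adjusted p of 1.44e-07 and the scaffold Mapk8ip3 by 0.29 with an adjusted p of 0.023 on the log2 scale, the latter not called with DESeq2 without a prior (0.0642), with DESeq2 with a prior (0.0639), without control replicate 2 (0.0662), without control replicate 3 (0.0949) and without Rnf40ΔSC replicate 3 (0.082), the range of adjusted p over all alternatives being 3.79e-05 to 0.0949. Mapk10, the JNK gene best known from neurons, had raw counts of 1, 0 and 2 in the control and 11, 9 and 11 in the Rnf40ΔSC libraries (ratio 8.51, counting interval 2.65 to 43.5; adjusted p = 0.00102). It reached the count minimum of the filter only in Rnf40ΔSC libraries, so that it had to differ to be tested, and without it 2 genes of this cascade were higher. Mapk8 and Mapk9, the JNK genes present in most tissues, had log2 fold changes of 0.04 with an adjusted p of 0.894 and -0.31 with an adjusted p of 0.0581.

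Of the ERK, serum response factor and CREB inputs 6 of 17 genes were higher and 2 lower (35.3% and 11.8%, over all genes 15.4% and 16.2%), DESeq2 called 3 and 1 (over all genes 10.3% and 11.3%), and the list had a median log2 fold change of 0.12. Mapk3, an ERK gene, had normalized counts of 948, 974 and 922 in control replicates 1, 2 and 3 and 368, 339 and 361 in Rnf40ΔSC replicates 1, 2 and 3. All Rnf40ΔSC libraries lay below all controls, the log2 fold change being -1.41 with an adjusted p of 3.36e-15. Among the genes called higher were the CREB coactivator Crtc1 at 0.71 with an adjusted p of 6.85e-05, the serum response partner Elk4 at 0.70 with an adjusted p of 0.0393 and the ERK-activated kinase Rps6ka3 at 0.40 with an adjusted p of 0.0208, and also lower was Map2k2, which phosphorylates ERK, at -0.48 with an adjusted p of 0.0181. The Elk4 call was lost with DESeq2 without a prior (0.155), with DESeq2 with a prior (0.154), without the robust option (0.0517), without control replicate 2 (0.167), without control replicate 3 (0.177) and without Rnf40ΔSC replicate 1 (0.189), the range of adjusted p over all alternatives being 0.00352 to 0.189. It was also lost with the replicate number as a block (0.0507). The Rps6ka3 call was lost with DESeq2 without a prior (0.0871), with DESeq2 with a prior (0.0869), without control replicate 2 (0.0768), without control replicate 3 (0.164) and without Rnf40ΔSC replicate 3 (0.0599), the range of adjusted p over all alternatives being 0.000175 to 0.164. The Map2k2 call was lost with total-count scaling (0.288), with DESeq2 without a prior (0.0829), with DESeq2 with a prior (0.0827), without control replicate 1 (0.051), without control replicate 2 (0.0742) and without Rnf40ΔSC replicate 3 (0.064), the range of adjusted p over all alternatives being 0.0169 to 0.288.

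Of 19 genes known to need cJun in Schwann cells after injury, 11 passed the filter, 5 were called higher and 1 lower, which is 45.5% and 9.09% against 15.4% and 16.2% over all genes, with a median log2 fold change of 0.09, while Jun itself was not called. Of the 5 higher, 3 reached the count minimum of the filter only in Rnf40ΔSC libraries, Igfbp2 and Gfap among them, and had to differ to be tested, so the count and the median are a description only. Igfbp2, which binds insulin-like growth factors, had raw counts of 5, 3 and 4 in the control and 51, 43 and 68 in the Rnf40ΔSC libraries and a log2 fold change of 3.43 with an adjusted p of 3.61e-10. Ncam1, an adhesion molecule of immature Schwann cells, had 1.16 with an adjusted p of 3.76e-12, and Megf10, an engulfment receptor, 1.62 with an adjusted p of 8.64e-11 on the same scale. Gfap, an intermediate filament of immature and non-myelinating Schwann cells, had raw counts of 1, 5 and 0 in the control and 12, 9 and 17 in the Rnf40ΔSC libraries and an adjusted p of 0.0036, with the call lost without control replicate 3 (0.0746), the range of adjusted p over all alternatives being 0.000955 to 0.0746. In the opposite direction, Ngfr, the p75 neurotrophin receptor, had a log2 fold change of -0.90 with an adjusted p of 3.63e-07. Shh, Olig1, Gdnf, Bdnf, Artn, Cxcl5 and Fgf5 had 0 to 3 counts in every library and Ucn2, which failed the filter too, had 1, 1 and 3 in the control and 10, 6 and 15 in the Rnf40ΔSC libraries (ratio 5.1, counting interval 1.97 to 16.8). Some heat shock genes respond to handling stress, as some immediate early genes do. Of 11 heat shock genes listed, Hspa1a, Hspa1b and Hspb1 had 1 to 11 raw counts per library and failed the filter. Among the 8 tested, 1 was higher (12.5%, over all genes 15.4%), Hspe1 at 1.17 with an adjusted p of 0.0402. By edgeR 0 were lower, against 1 lower at an unadjusted p under 0.05 and 0 by DESeq2. Handling stress itself was not tested. Hspe1 reached the count minimum only in Rnf40ΔSC libraries, and its call was lost with DESeq2 without a prior (0.136), with DESeq2 with a prior (0.13), without control replicate 1 (0.149), without control replicate 3 (0.136), without Rnf40ΔSC replicate 1 (0.0618) and without Rnf40ΔSC replicate 2 (0.191), the range of adjusted p over all alternatives being 0.00876 to 0.191.

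The spread among replicates was measured as the biological coefficient of variation, the part of the variation beyond counting, which edgeR draws towards the trend of genes of like abundance. Its median was 0.130 over the 10 genes and 0.115 over all genes tested, whose middle 50% lay between 0.0964 and 0.151. A measure without such drawing, the variance within genotypes divided by that of counting, had a median of 1.76 over the 10 genes and 1.38 over all genes. It rises overall with abundance, from a median of 1.06 among the least abundant 5% of genes tested to 4.197 among the most abundant 5%, so the members are set against genes of like abundance. Klf4 had 3.47, above their upper quartile of 2.21, and Jun had 2.41, inside the middle 50% of 0.831 to 2.68. Egr1 had 0.355, less than counting alone gives on average and below the lower quartile of 0.767. Junb at 0.501 and Atf3 at 0.543 also lay below their lower quartiles of 0.607 and 0.648. The coefficient of variation among control libraries was 35.2% for Fos, 36.3% for Fosb and 32.7% for Ier2, against 10.4%, 31.6% and 12.7% among Rnf40ΔSC libraries. It was larger in control for 7 of the 10 genes. In Rnf40ΔSC libraries it was larger for 3, Jun (9.77% against 11.3%), Jund (1.47% against 11.9%) and Fosl2 (12.1% against 16.1%). The share over all genes was not computed, so this count is no result about the 10 genes. Over all genes tested, chi-square per degree of freedom was 1.82 to 1.94 between control replicates. It was 2.91 to 5.62 between Rnf40ΔSC replicates.

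No library stood apart in all 10 genes. As the mean deviation of log2 CPM from the genotype mean over the 10 genes, control replicates 1, 2 and 3 had -0.02, 0.11 and -0.10 and Rnf40ΔSC replicates 1, 2 and 3 had -0.08, 0.09 and -0.02. In control replicate 2 and Rnf40ΔSC replicate 2, 8 of the 10 genes were above their genotype mean, and in control replicate 3 the number was 3. Over the 6 libraries, the deviations of Dmxl2, Stk3, Impact, Tmem237 and Agap1 were most like this mean among 6231 genes whose mean normalized count reached 50, with Pearson's r from 0.99 to 0.999. In 6 libraries of 2 genotypes such values are a description of these libraries, and 91 genes had an r above 0.9.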

How the data were processed

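The authors used TopHat and mm9 for alignment and HTSeq for counting, with unique alignments kept, and the deposited values are unnormalized counts for each gene symbol. The submitters' processing notes list Bowtie2, mm9 and mm10, and the labels name another library kit than the methods. Neither the annotation nor the strand setting is given in the sources used here. Testing used edgeR 4.0.16 in R 4.3.3 (filterByExpr, TMM, robust quasi-likelihood fit, genotype as the only term, Benjamini-Hochberg adjustment over 11371 genes), and alternatives were RLE and total-count scaling, DESeq2 1.42.0 with and without a prior, other filters, the fit without the robust option, a replicate block and each library left out. Deviations of log2 CPM used a prior count of 2. Normalized counts are at a common size of 1874421 counts, the geometric mean of the effective library sizes. That size was adopted after the data were seen, in place of the mean of total counts (1934820), because it gave the counts that an earlier re-analysis of the same deposited counts, not the paper, had at the limits of the study. Fold changes and p-values do not depend on it. Within genotypes, counts of replicates varied beyond sampling noise. Chi-square per degree of freedom was 1.82 to 1.94 in control and 2.91 to 5.62 in Rnf40ΔSC pairs. The code was tested on simulated counts. The members and lists were chosen with earlier results of these data known. Named were the 10 members, Rnf40, Rnf20, Egr2, Myc, up to 5 called genes per direction with the largest change from each of 6 lists of related genes, the most abundant marker of each cell type, and the 5 genes most like the members. Other genes named were chosen after their values were seen. Some genes that the rule names are not reported here.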

Additional observations from a re-analysis of the deposited data

How the results depend on the processing

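The count of members called higher was 1 under all alternatives except total-count scaling, which gave 5, and that of members called lower was 1 except for 0 with total-count scaling, DESeq2 with or without a prior, and the fit without the robust option, and 0 to 1 with a library left out. Past the limits of the study, total-count scaling gave 1 member in place of 0. Other immediate early genes called higher numbered 11 with total-count scaling and 3 with DESeq2 with or without a prior, against 5, and 3 to 6 with a library left out. Over all genes, total-count scaling called 3766 higher and 880 lower, against 1756 and 1841. Without division by length, Jund held 55.8% of the Jun family in Rnf40ΔSC nerves, and Fosl2 held 75.1% and 66.2% of the Fos family in control and Rnf40ΔSC nerves. Without Fosl1 in the family, an alternative chosen after seeing the data, Fosl2 held 57.6% and 51.0%. The causes were not tested.

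Signs turned for genes with estimates near 0 and, with total-count scaling, also for Fosl2 and Ier2, whose estimates of -0.23 and -0.26 are no larger than its shift of 0.269. The log2 fold change of Jund was 0.003 with RLE scaling and with DESeq2, 0.006 without a filter, 0.011 with 10 counts or more in every library and 0.266 with total-count scaling. With total-count scaling Fos was at 0.23, Fosl2 at 0.039, Ier2 at 0.007 and Tmem237 at 0.264. With a library left out, values ran from -0.076 to 0.095 for Jund, from -0.19 to 0.265 for Fos, from -0.143 to 0.451 for Myc and from -0.119 to 0.132 for Tmem237. Tmem237 was also at 0.002 with DESeq2, 0.001 without a filter and 0.006 with 10 counts or more in every library. Junb and Fosb gave no value with that filter.

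With the replicate number as a block, 1 member was called higher and 1 lower, as without it, and 1727 genes were called higher and 1837 lower. Among the named genes that were followed under the alternatives, the block ended the call of Elk4 (adjusted p = 0.0507), turned Tmem237 to 0.015 and changed no other call. Pou3f1, Pou3f2, Foxd3, Cd4, Nr4a1, Mapk8 and Mapk9, among others, were not followed. The deviations of same-numbered libraries correlated at -0.0948, -0.015 and -0.0621 across genes. Libraries of different number gave -0.0307 to 0.104. Deviations of single libraries hold counting noise, so these values do not decide whether same-numbered samples share more than a number.

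An alternative chosen after seeing the data, a common size of 1934820 counts, gave 424 genes higher and 575 lower at the limits of the study, against 415 and 567, and 0 members by edgeR as before. The widest intervals of the 10 members were those of Fosb, Junb, Ier2, Atf3 and Fos, in that order.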
